A study of Homo sapiens with 27 samples.

Results

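Expression of 10 genes of the Hippo pathway and its YAP output was followed in GNAQ mutant uveal melanoma cells of the line 92.1 during treatment with a FAK inhibitor. The 10 genes were YAP1, WWTR1, TEAD1, TEAD2, TEAD4, LATS1, LATS2, AMOTL2, CCN1 and CCN2, found by symbol among the 61533 genes listed, and each symbol matched 1 gene. The cells, an established line from a tumour of the eye, were treated with 100 nM VS-4718 (FAKi), an inhibitor of focal adhesion kinase, or with DMSO, the solvent control. RNA was taken at day 0 from DMSO cells, and from DMSO and FAKi cells at days 3, 7, 14 and 21, with 3 libraries in each of these 9 groups. All 27 libraries came from this 1 line and carry its GNAQ mutation, with no untransformed cells for comparison. The labels give each library a replicate number, and by the methods plates were in triplicate and the whole experiment was repeated. The labels do not say whether the numbers stand for plates or for repeats of the experiment. The p-values therefore measure the spread between these libraries, whichever of these they are.

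The Hippo pathway is a kinase cascade that restrains the transcriptional coactivators YAP (YAP1) and TAZ (WWTR1). The kinases LATS1 and LATS2 phosphorylate YAP and TAZ and hold them outside the nucleus. Unphosphorylated YAP and TAZ enter the nucleus, bind TEAD factors on DNA and raise transcription of target genes such as CCN1, CCN2, AMOTL2 and LATS2, of which LATS2 and AMOTL2 feed back to restrain YAP. In uveal melanoma, mutant GNAQ is known to activate YAP through FAK, which is the setting in which FAKi was applied here.

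Several libraries stood apart from their group, and the results of the 10 genes that moved with them are given with and without them. Total counts were between 12161994 and 43651551 per library. By the root mean square difference of log2 CPM (read counts scaled to library size, over all 27 libraries with the trimmed mean of M-values, TMM) across 16981 genes, the nearest library of 8 of the 27 belonged to another group. FAKi day 7 replicate 1 lay closest to FAKi day 14 replicate 1, at 0.17, against 0.623 to the nearest library of its own group. DMSO day 3 replicate 1 lay closest to DMSO day 0 replicate 3, whereas DMSO day 3 replicates 2 and 3 lay closest to DMSO day 21 replicate 3. DMSO day 21 replicate 3 in turn lay closest to DMSO day 3 replicate 3, at 0.278, against 0.629 within its own group, and the description in its labels carries an extra digit in the day, so its day is in doubt. The mitochondrial share of counts was between 5.49% and 11.2% in the 6 libraries of day 21 and in DMSO day 3 replicates 2 and 3, and at least 16.8% in the other 19. Those 8 libraries also had lower values for long transcripts and higher values for short ones than the rest, with slopes of log2 CPM on log2 transcript length from -0.28 to -0.028, against 0.0225 to 0.116 elsewhere. Without DMSO day 3 replicate 1 (18.1%), the DMSO libraries left at day 3 were at 9.59% and 8.61%, against 16.8% to 18.7% with FAKi. Without DMSO day 21 replicate 3 (9.75%), those left at day 21 were at 5.49%, against 10.7% to 11.2% with FAKi. The fits without these libraries thus compared groups further apart in mitochondrial share, and its part in their results was not tested.

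The cells carried the markers of their lineage. All 7 melanocyte markers were at 1 CPM or more in every library, and TYRP1 and PMEL averaged 5552 and 4939 CPM. Of the leukocyte markers, CD68 ranged from 23.4 to 126 CPM while PTPRC, CD3E and CD14 stayed below 1 CPM in every library. The fibroblast markers LUM and COL1A1 averaged 5.08 and 5.73 CPM, with DCN and COL1A2 below 1 CPM in every library. The endothelial markers PECAM1, CDH5 and VWF summed to at most 0.881 CPM and the epithelial markers EPCAM, CDH1, KRT5 and KRT14 to at most 2.25 CPM.

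The promoters of the YAP target genes are shown because TEAD factors recognise the letters GGAATG, or CATTCC on the other strand, which stand in capitals. RefSeq sequence of the build GRCh38.p14 was available for 7 of the 10 genes, and CCN1, TEAD1 and TEAD4 had no entry. For CCN2 the 250 bases before the start, at chr6:131951373-131951622 on the minus strand, held the motif 3 times, beginning 169, 104 and 95 bases before the start.
CCN2 promoter: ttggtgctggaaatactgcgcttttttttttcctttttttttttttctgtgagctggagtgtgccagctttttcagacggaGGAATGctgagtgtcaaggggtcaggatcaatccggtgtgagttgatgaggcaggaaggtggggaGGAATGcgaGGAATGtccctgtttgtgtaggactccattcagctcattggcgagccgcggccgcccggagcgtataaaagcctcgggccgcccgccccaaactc
Only 28 of 35116 promoters (0.0797%) had 3 or more copies of the motif in either orientation within this window, and 11.9% had at least 1. For AMOTL2 the 250 bases before the start, at chr3:134374448-134374697 on the minus strand, held a single copy, beginning 69 bases before the start.
AMOTL2 promoter: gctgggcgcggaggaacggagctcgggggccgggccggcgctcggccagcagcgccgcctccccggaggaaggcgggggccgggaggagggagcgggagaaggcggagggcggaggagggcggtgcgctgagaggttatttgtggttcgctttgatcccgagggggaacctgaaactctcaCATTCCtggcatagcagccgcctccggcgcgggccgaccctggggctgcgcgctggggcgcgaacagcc
The YAP1 promoter held a single copy that began 162 bases before the start, shown with its neighbouring bases at chr11:102110273-102110302 on the plus strand. In LATS2 the copy lay just inside the transcript, beginning 9 bases after the start, at chr13:21061560-21061589 on the minus strand.
YAP1 site: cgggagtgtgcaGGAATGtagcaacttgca
LATS2 site: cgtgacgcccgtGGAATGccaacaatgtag
A further AMOTL2 start and both starts listed for each of WWTR1, TEAD2 and LATS1 had no copy from 250 bases before to 50 bases after them, and the WWTR1 starts are not that of its counted transcript. Over all promoters, 14.0% had one in a window of that length. A match of these letters is a description and says nothing of binding in these cells.

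Per length of the counted transcript, the DNA-binding partner TEAD2 was the most abundant of the 10 genes and the counted WWTR1 transcript the least. TEAD2 averaged 25.7 CPM per kilobase over the 27 libraries and exceeded AMOTL2, the next, in all 27. AMOTL2 averaged 15.2 and YAP1 14.2 CPM per kilobase, and their order changed between libraries, with AMOTL2 higher in 17 of 27. Next came TEAD4 at 9.99, TEAD1 at 6.74, LATS2 at 5.18, CCN1 at 3.58 and LATS1 at 2.65 CPM per kilobase, and each neighbour in this order was higher in 19 to 21 of the 27 libraries. CCN2 averaged 0.631 and WWTR1 0.303 CPM per kilobase, and LATS1 exceeded CCN2 in 26 of 27 libraries. TEAD3, the family member outside the 10, averaged 9.22 CPM per kilobase, between TEAD4 and TEAD1. The WWTR1 level rests on a transcript that GENCODE 44 lists without a coding sequence and on 1 to 64 counts per library, so reads of the coding transcripts outside its exons are not part of it. The WWTR1 start at chr3:149658025 on the minus strand lies past the end of that transcript, so RNA from this start was not counted. The low WWTR1 level is therefore not a measure of all TAZ mRNA. Counts of YAP1, TEAD2, LATS1 and CCN2 may include antisense reads, since 11.6%, 12.9%, 3.44% and 11.9% of their exon bases overlap a gene on the opposite strand (CD37 for TEAD2 and LINC01013 for CCN2) and the strand setting of the counting was not named.

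**Figure D1:**
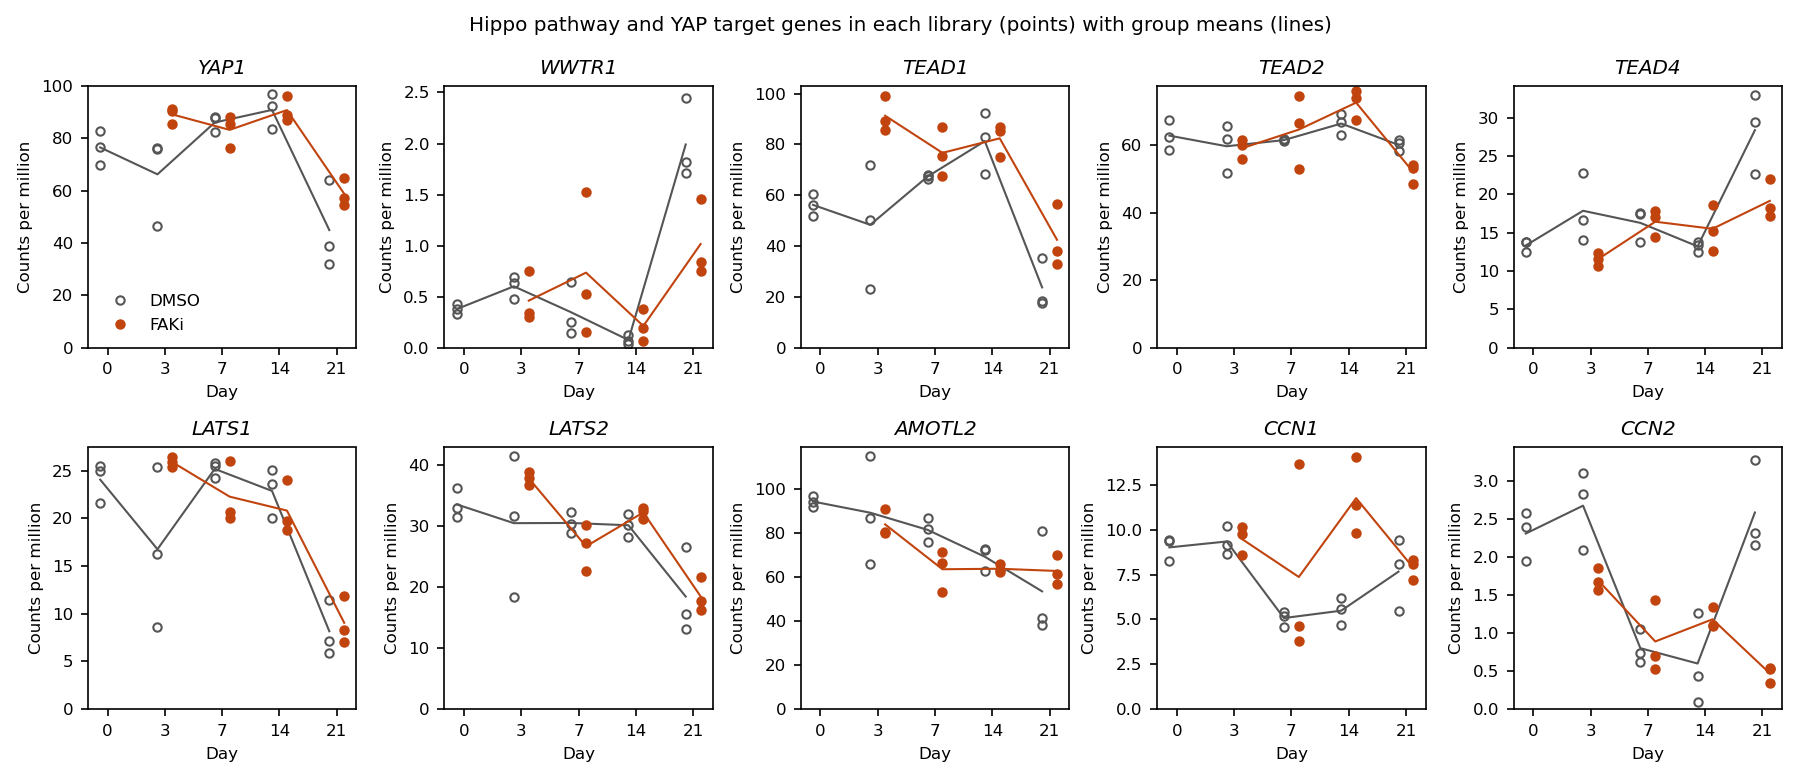
CPM (linear axis, TMM scaling over 27 libraries) of the 10 genes by day, with open points for DMSO, filled points for FAKi and lines through the means of 3 libraries. The 3 FAKi libraries of day 21 sit at 0.345 to 0.541 CPM for CCN2, below the DMSO libraries at 2.16 to 3.29, and those of day 14 sit at 9.81 to 14.1 CPM for CCN1, above DMSO at 4.67 to 6.21.

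With FAKi, 2 of the 10 genes were called, each on a single day and in opposite directions. Both encode secreted matrix proteins of the CCN family. CCN1 was higher with FAKi at day 14 and CCN2 was lower at day 21. Calls needed both an adjusted p no higher than 0.05 (edgeR quasi-likelihood) and a log2 fold change beyond 1 in either direction, in a fit of the 6 libraries of that day. At day 14, 1 of the 10 was called against a background of 1.66% of all genes tested, and at day 21, 1 of the 10 against 5.28%. At day 3 edgeR called 0 of the 10 and 0% of all genes, with 4 of the 10 and 23.8% of all genes at an unadjusted p under 0.05, and DESeq2 also called 0 of the 10 (3.30% of all genes). At day 7 edgeR called 0 of the 10 and 0.0269% of all genes, with 1 of the 10 and 8.77% of all genes at an unadjusted p under 0.05, and DESeq2 called 0 (0.457% of all genes). The median log2 fold change of the 10 genes was 0.03, 0.05, 0.11 and 0.04 at days 3, 7, 14 and 21, and that of all genes tested was between -0.02 and 0.02. In the mean over the 4 days, edgeR called 0 of the 10 (1.89% of all genes), with 3 at an unadjusted p under 0.05 (30.3% of all genes), and DESeq2 also called 0 (1.91% of all genes). In edgeR, TEAD1 alone of the 10 passed the adjusted p without the fold threshold there (15.7% of all genes). With DESeq2, 2 of the 10 passed it, both higher with FAKi (19.7% of all genes).

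**Figure D2:**
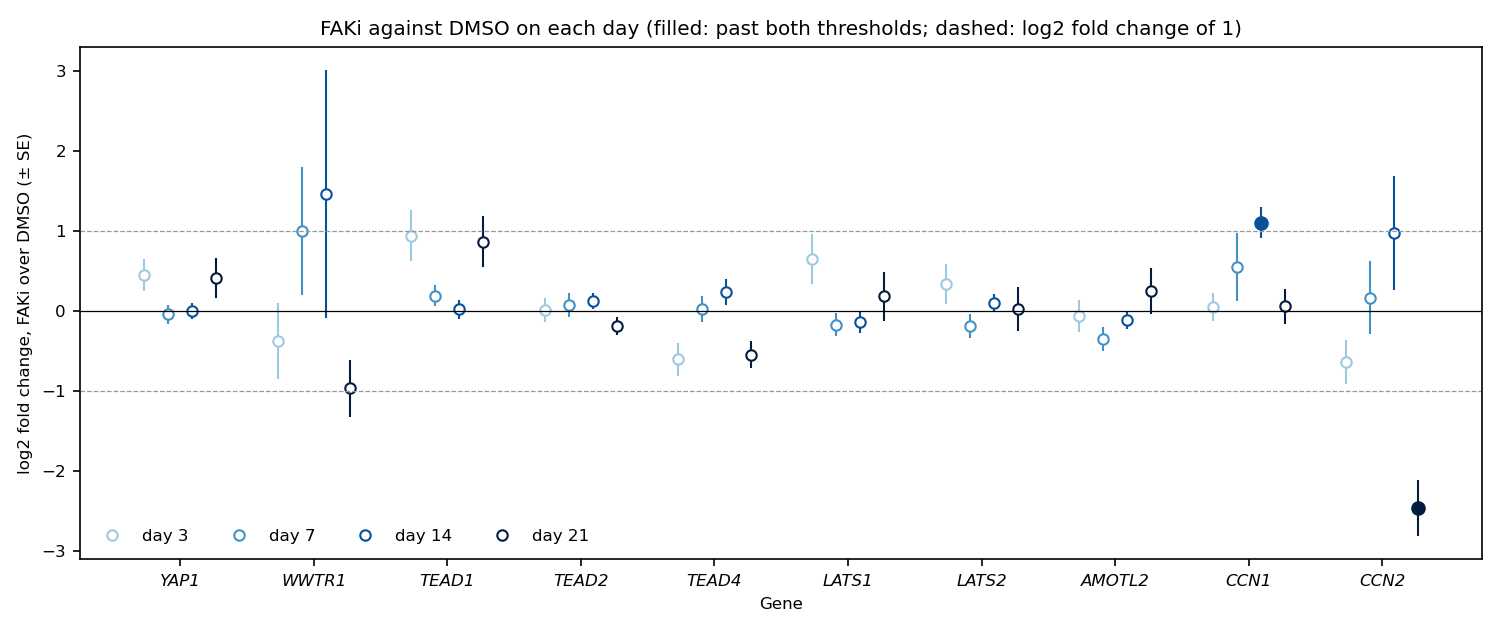
Log2 fold change of FAKi over DMSO with its standard error for each of the 10 genes (horizontal axis) at days 3, 7, 14 and 21 (light to dark points). The filled points, CCN1 at day 14 at 1.10 and CCN2 at day 21 at -2.46, passed both thresholds, and dashed lines mark a log2 fold change of 1 in either direction.

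CCN2 (chromosome 6, 131948176-131951372, minus strand, hg38), a matrix protein widely used as a readout of YAP and TEAD activity, was 0.182-fold as abundant with FAKi as with DMSO at day 21. The DMSO libraries of that day held 2.33, 2.16 and 3.29 CPM and the FAKi libraries 0.528, 0.541 and 0.345 CPM. Those FAKi values rest on 12, 10 and 12 counts and the DMSO values on 82, 38 and 71. Every FAKi library lay below every DMSO library, and the groups of 35.3% of all genes did not overlap that day. The log2 fold change was -2.46 (SE 0.35, adjusted p = 0.0075, edgeR quasi-likelihood, Benjamini-Hochberg). The fold kept its size without DMSO day 21 replicate 3, at -2.25, while the adjusted p was 0.0581 and 0.0590 in the same test without FAKi replicate 2 and FAKi replicate 3, where only 52 and 148 of all genes were called.

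The difference in CCN2 was not present on every day. At day 3 the DMSO libraries held 2.83, 3.12 and 2.09 CPM and the FAKi libraries 1.68, 1.85 and 1.57 CPM. The log2 fold change was -0.64 (SE 0.27) with groups that did not overlap (31.0% of all genes) but an adjusted p of 0.196 in edgeR's quasi-likelihood test. At day 7 the values were 0.620, 1.05 and 0.739 CPM with DMSO and 1.44, 0.527 and 0.705 CPM with FAKi, and the groups overlapped. At day 14 they were 1.26, 0.441 and 0.0976 CPM with DMSO and 1.11, 1.35 and 1.09 CPM with FAKi, a log2 fold change of 0.97 (SE 0.72). The 3 counts behind the lowest DMSO library of day 14 leave that value imprecise. The FAKi effect on CCN2 differed between the 4 days in a test of 3 interaction terms over 24 libraries (adjusted p = 0.0136, edgeR quasi-likelihood, Benjamini-Hochberg), the single one of the 10 genes to pass, against 10.3% of all genes. Without DMSO day 3 replicate 1 and FAKi day 7 replicate 1, 5 of the 10 passed this test (25.6% of all genes), namely CCN2, CCN1, TEAD1, TEAD4 and LATS1, and without FAKi day 21 replicate 3 none did (for CCN2 the edgeR quasi-likelihood adjusted p was 0.0520).

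CCN1 (chromosome 1, 85580761-85583950, plus strand), the other CCN family readout of YAP, was 2.14-fold higher with FAKi at day 14. The DMSO libraries held 4.67, 6.21 and 5.60 CPM and the FAKi libraries 14.1, 11.4 and 9.81 CPM. No FAKi library of that day reached down to a DMSO library, and the groups of 29.0% of all genes did not overlap that day. The log2 fold change was 1.10 (SE 0.19, adjusted p = 6.26e-04, edgeR quasi-likelihood, Benjamini-Hochberg). It was 0.99 without DMSO day 14 replicate 1 and 0.95 without FAKi day 14 replicate 1, just inside the fold threshold, with adjusted p of 0.00262 and 0.0135 in that test.

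At day 7 a single FAKi library carried the level of CCN1. FAKi day 7 replicate 1 held 13.7 CPM, close to the 14.1 CPM of FAKi day 14 replicate 1, the library it lay nearest to, while replicates 2 and 3 held 4.62 and 3.82 CPM and the DMSO libraries 5.43, 4.60 and 5.203 CPM. The log2 fold change at day 7 was 0.54 (SE 0.43) with this library and -0.25 without it, and the adjusted p was 0.747 and 0.589 in edgeR's quasi-likelihood test. At day 3 CCN1 was at 10.2, 8.67 and 9.14 CPM with DMSO and at 10.1, 9.79 and 8.58 CPM with FAKi, and at day 21 at 9.44, 5.45 and 8.10 CPM with DMSO and at 8.10, 7.20 and 8.33 CPM with FAKi. The groups overlapped on both days. In the mean over the 4 days CCN1 had a log2 fold change of 0.43 (SE 0.15, adjusted p = 0.0513, edgeR's quasi-likelihood test). CCN1 passed the adjusted p there in 14 of 37 alternative settings. With all libraries its FAKi effect did not pass the test of a change between days (adjusted p = 0.2, same edgeR test), so the call at day 14 does not show an effect confined to that day.

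YAP1 (chromosome 11, 102110461-102233423, plus strand), the coactivator itself, was at 32.1 to 96.8 CPM across all libraries, and FAKi and DMSO libraries differed mainly where DMSO libraries were low. At day 3 the FAKi libraries held 90.6, 91.4 and 85.7 CPM and the DMSO libraries 76.2, 76.3 and 46.5 CPM, a log2 fold change of 0.45 (SE 0.20, adjusted p = 0.204, edgeR's quasi-likelihood test). Without DMSO day 3 replicate 1 it was 0.56 (adjusted p = 0.0348, edgeR's quasi-likelihood test), in a fit where 32.7% of all genes passed the adjusted p. With all 6 libraries of day 3 the groups did not overlap, as for 5 of the 10 genes and 31.0% of all genes tested. At days 7 and 14 the log2 fold changes were -0.04 (SE 0.12) and -0.0027 (SE 0.10), with every library of both treatments between 76.3 and 96.8 CPM. At day 21 the FAKi libraries held 54.6, 57.2 and 64.8 CPM and the DMSO libraries 38.7, 32.1 and 64.1 CPM, so DMSO replicate 3 lay among the FAKi values. The log2 fold change was 0.41 (SE 0.25, adjusted p = 0.282), and 0.77 without that library (adjusted p = 2.21e-05, edgeR's quasi-likelihood test in both), where 48.5% of all genes passed.

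WWTR1 encodes TAZ, the paralog of YAP, and its counted transcript (chromosome 3, 149701605-149736714, minus strand) was close to the detection limit and varied widely. The values below are of that transcript and not of TAZ mRNA as a whole. At day 21 the DMSO libraries held 1.82, 2.44 and 1.71 CPM and the FAKi libraries 0.836, 1.46 and 0.747 CPM. Every FAKi library was below the DMSO libraries, and the groups of 35.3% of all genes did not overlap that day. The log2 fold change was -0.97 (SE 0.35, adjusted p = 0.102), and -1.05 with an adjusted p of 0.0239 without DMSO replicate 3 (edgeR's quasi-likelihood test), where 48.5% of all genes passed. At day 7 the FAKi libraries ranged from 0.149 to 1.53 CPM, over 3 to 26 counts, and at day 14 no library exceeded 11 counts. The log2 fold changes there, 1.00 (SE 0.80) and 1.46 (SE 1.55), were no larger than this spread.

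TEAD1 (chromosome 11, 12674421-12944737, plus strand), a DNA-binding partner of YAP, was higher with FAKi in the mean over the 4 days, by 0.50 on the log2 scale (SE 0.14, adjusted p = 0.0166, edgeR quasi-likelihood, Benjamini-Hochberg). It passed in 35 of 37 alternative settings, at 0.36 to 0.61 over all 37, and 24 of these settings only left out a single library. At day 3 the FAKi libraries held 89.4, 99.0 and 85.6 CPM and the DMSO libraries 71.8, 50.1 and 23.1 CPM. At day 21 they held 32.8, 38.0 and 56.6 CPM with FAKi and 17.4, 18.3 and 35.4 CPM with DMSO. The DMSO values of these days were lowest in the libraries of low mitochondrial share, and their part in the difference was not tested. The log2 fold change was 0.94 (SE 0.32, adjusted p = 0.135) at day 3 and 0.86 (SE 0.32, adjusted p = 0.104) at day 21 in edgeR's quasi-likelihood test, and 0.19 (SE 0.13) and 0.02 (SE 0.11) at days 7 and 14. Without DMSO day 3 replicate 1 the value at day 3 was 1.34 and called (adjusted p = 0.00138), and without DMSO day 21 replicate 3 that at day 21 was 1.30 and called (adjusted p = 5.98e-06, edgeR's quasi-likelihood test in both). Leaving out these libraries also raised the share of all genes called to 12.7% at day 3 and 18.7% at day 21.

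TEAD4 (chromosome 12, 2959397-3040676, plus strand), another DNA-binding partner, ran the other way at the same days. At day 3 the FAKi libraries held 11.6, 10.6 and 12.4 CPM and the DMSO libraries 14.1, 16.6 and 22.8 CPM, a log2 fold change of -0.61 (SE 0.21, adjusted p = 0.135, edgeR's quasi-likelihood test). At day 21 they held 18.2, 22.0 and 17.2 CPM with FAKi and 33.0, 29.4 and 22.7 CPM with DMSO, a log2 fold change of -0.55 (SE 0.17, adjusted p = 0.0719 in that test). Without DMSO day 3 replicate 1 the value at day 3 was -0.75 (adjusted p = 0.00677), and without DMSO day 21 replicate 3 that at day 21 was -0.68 (adjusted p = 2.40e-04, edgeR quasi-likelihood for both). Of all genes, 32.7% and 48.5% passed the adjusted p in these fits. The groups did not overlap on either day (31.0% and 35.3% of all genes), and the values of days 7 and 14 did, at log2 fold changes of 0.02 (SE 0.16) and 0.23 (SE 0.16). TEAD2 (chromosome 19, 49340600-49360438, minus strand) was between 48.5 and 76.2 CPM in all 27 libraries, with log2 fold changes between -0.19 and 0.13 over the 4 days.

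The kinases LATS1 and LATS2 were not called on any day with all libraries. LATS1 (chromosome 6, 149658153-149718101, minus strand) was at 25.4, 25.9 and 26.4 CPM with FAKi at day 3, and at 25.4, 16.3 and 8.63 CPM with DMSO. Its log2 fold change there was 0.65 (SE 0.31, adjusted p = 0.237), and 1.08 with an adjusted p of 0.00315 without DMSO replicate 1 (edgeR's quasi-likelihood test). In that fit 32.7% of all genes passed the adjusted p and 12.7% were called. At day 21 both treatments were low, at 7.04, 8.28 and 11.8 CPM with FAKi and 5.90, 7.16 and 11.4 CPM with DMSO, and replicate 3 was the highest of both. The log2 fold change was 0.18 (SE 0.30, adjusted p = 0.706), and 0.54 without DMSO replicate 3 (adjusted p = 0.0412, edgeR's quasi-likelihood test), where 48.5% of all genes passed. LATS2 (chromosome 13, 20973036-21061586, minus strand) had log2 fold changes of 0.33 (SE 0.25), -0.19 (SE 0.15), 0.10 (SE 0.11) and 0.02 (SE 0.27) at days 3, 7, 14 and 21. Without DMSO day 3 replicate 1 its value at day 3 was 0.62 (adjusted p = 0.0320), and without DMSO day 21 replicate 3 that at day 21 was 0.40 (adjusted p = 0.0325, edgeR quasi-likelihood for both), in the same fits with 32.7% and 48.5% of all genes passing. Its lowest values, 13.1 and 15.6 CPM, were those of DMSO day 21 replicates 2 and 1.

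AMOTL2 (chromosome 3, 134355347-134374447, minus strand), an angiomotin family scaffold that binds YAP, had no called difference on any day. At day 7 the FAKi libraries held 66.3, 71.2 and 53.0 CPM and the DMSO libraries 75.7, 86.6 and 81.8 CPM. Every FAKi library was below the DMSO libraries, with a log2 fold change of -0.35 (SE 0.15, adjusted p = 0.546, edgeR's quasi-likelihood test). The groups of 16.8% of all genes did not overlap that day, in either direction. At day 21 DMSO replicate 3 held 80.9 CPM against 41.3 and 38.1 CPM in replicates 1 and 2, and the FAKi libraries lay between them at 57.0, 61.3 and 69.8 CPM. The log2 fold change was 0.25 (SE 0.28, adjusted p = 0.566) with that DMSO library and 0.70 (SE 0.11, adjusted p = 4.46e-05) without it in edgeR's quasi-likelihood test. In the fit without it 48.5% of all genes passed the adjusted p.

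At day 21 same-numbered FAKi and DMSO libraries were correlated, and a fit with the number as a block passed more of the 10 genes. The labels do not say that the numbers are blocks, and the correlations did not all pass on other days. The correlation was highest for replicate 3 (0.688), which had the least negative length slope in both treatments (-0.095 with DMSO, -0.0645 with FAKi). Whether the correlation came from shared experiments or from such library properties was not tested. In the fit with the block 5 of the 10 passed the adjusted p (29.9% of all genes), against 1 without the block (11.6% of all genes). They were CCN2 at -2.46, WWTR1 at -0.99, TEAD1 at 0.90, TEAD4 at -0.54 and YAP1 at 0.46 on the log2 scale, with adjusted p of 0.00126, 0.0438, 7.36e-04, 0.0134 and 0.0396 in edgeR's quasi-likelihood test with the replicate block. CCN2 remained the one gene of the 10 called by both thresholds (8.94% of all genes).

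Without inhibitor, 7 of the 10 genes passed the adjusted p over 21 days in culture. In DMSO at day 21 against DMSO at day 0, 4 of the 10 were called (19.3% of all genes). LATS1 fell by 1.56 (SE 0.29) and TEAD1 by 1.24 (SE 0.31) on the log2 scale, and WWTR1 was higher by 2.38 (SE 0.53) and TEAD4 by 1.10 (SE 0.19). Adjusted p were 9.70e-04, 0.00489, 0.00255 and 5.97e-04 in edgeR quasi-likelihood, Benjamini-Hochberg. LATS2, AMOTL2 and YAP1 fell by 0.85, 0.81 and 0.76 and passed the adjusted p alone, which 38.4% of all genes did. CCN1, CCN2 and TEAD2 did not pass it. Without DMSO day 21 replicate 3 all 7 were called by both thresholds, with YAP1 at -1.18, LATS2 at -1.28 and AMOTL2 at -1.31 (27.4% of all genes). TEAD4 was just inside the fold threshold, at 0.999 and 0.97, without DMSO day 0 replicate 1 and without DMSO day 21 replicate 1. In these fits and those below, the same 3 DMSO libraries of day 0 served every day.

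These changes over time ran with transcript length and with the mitochondrial share of the libraries. The counted transcripts of TEAD4 and WWTR1, which were higher, are 1685 and 2130 bases long, while those of YAP1, LATS2, LATS1 and TEAD1, which were lower, are 5381, 5531, 7347 and 9392 bases long. CCN1, CCN2 and TEAD2, of 2269, 2329 and 2419 bases, were at -0.22, 0.17 and -0.06 on the log2 scale, far from WWTR1 at a similar length. Across 16981 genes the median log2 fold change of DMSO day 21 over day 0 was 0.67 for transcripts of at most 1561 bases and -0.53 for those of at least 4792 bases. After correcting the libraries for length and GC content, 2 of the 10 remained called (13.2% of all genes), WWTR1 at 2.41 and LATS1 at -1.004, and TEAD1 and TEAD4 were at -0.69 and 0.54. The part of these library properties in the differences was not tested beyond that correction. The FAKi comparisons of days 3 and 21 ran with length in the other direction. Their medians were -0.24 for the short and 0.22 for the long transcripts at day 3 and -0.29 and 0.18 at day 21. At day 7 the medians were -0.015 and 0.011, and at day 14 they were -0.014 and -0.030. With the same correction the log2 fold changes at day 3 were -0.30 for TEAD4, 0.33 for LATS1, 0.22 for YAP1 and 0.70 for TEAD1, and at day 21 -0.37 for TEAD4, 0.29 for YAP1 and 0.66 for TEAD1. CCN2 at day 21 was -2.46 with it (adjusted p = 0.00413, edgeR's quasi-likelihood test).

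**Figure D3:**
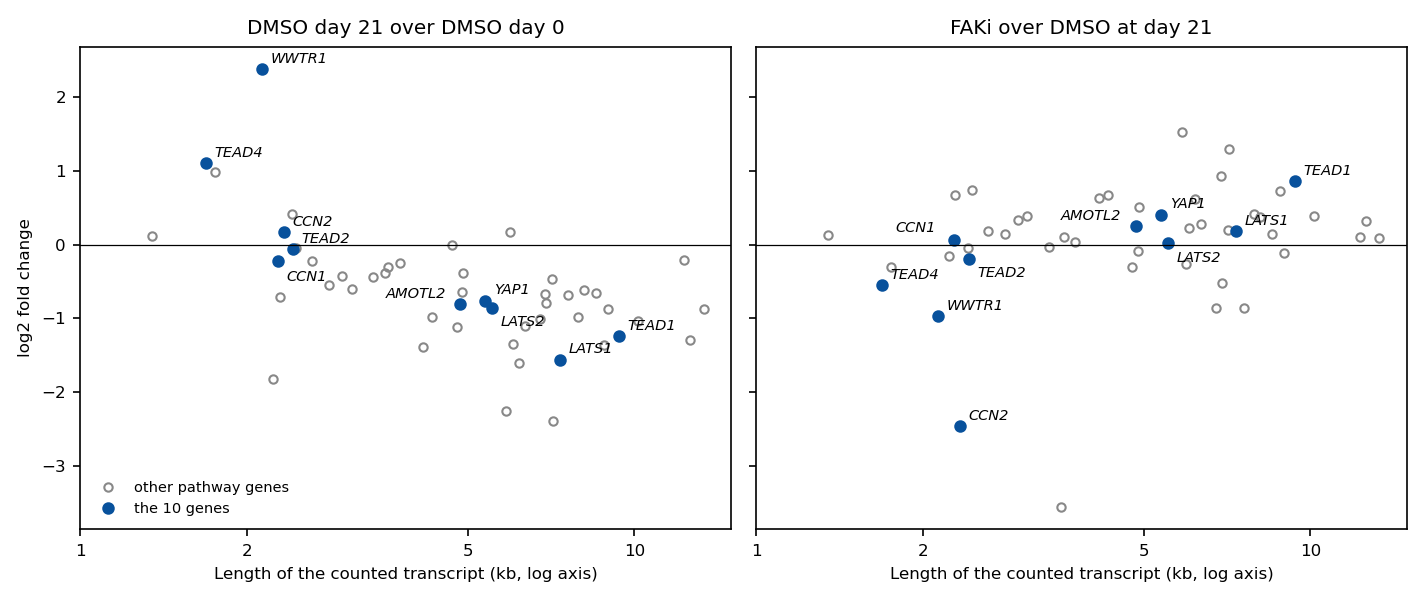
Log2 fold change against the length of the counted transcript (kilobases, log axis) for the 10 genes (filled) and the other pathway genes tested (open), for DMSO day 21 over DMSO day 0 on the left and FAKi over DMSO at day 21 on the right. On the left LATS1 and TEAD1 lie at -1.56 and -1.24 and the short TEAD4 and WWTR1 at 1.10 and 2.38, and on the right CCN2 lies at -2.46, below the other genes of similar length.

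CCN2 and CCN1 were low in DMSO in the middle of the time course and back near the first level at its end. CCN2 held 2.59, 1.95 and 2.40 CPM at day 0, and fell by 1.94 (SE 0.52) on the log2 scale by day 14 (adjusted p = 0.0188, edgeR quasi-likelihood, Benjamini-Hochberg). At day 7 its log2 fold change against day 0 was -1.56 (SE 0.52, adjusted p = 0.731) and at day 21 it was 0.17 (SE 0.49). CCN1 held 9.37, 9.41 and 8.28 CPM at day 0 and fell by 0.71 (SE 0.20, adjusted p = 0.0228) by day 14 in the same edgeR test, inside the fold threshold, as 15.4% of all genes passed the adjusted p that day. Its log2 fold change was -0.84 (SE 0.20, adjusted p = 0.178, same edgeR test) at day 7 and -0.22 (SE 0.20) at day 21. WWTR1 was also called at day 14 at -2.28 (SE 0.66, adjusted p = 0.0269, edgeR's quasi-likelihood test), on 4, 1 and 2 counts against 7, 4 and 7, a call that was lost in 5 of the 6 fits without a single library (without DMSO day 14 replicate 1 it held). So 2 of the 10 were called at day 14 (6.14% of all genes), and edgeR called 0 of the 10 at days 3 and 7 (0% and 0.0802% of all genes), with 1 and 2 at an unadjusted p under 0.05 (10.1% and 3.69% of all genes). DESeq2 also called 0 on both days (0.508% and 0.195% of all genes). By the adjusted p alone DESeq2 passed 1 of the 10 at day 7, CCN1, which was lower (DESeq2 adjusted p = 0.0127, 0.508% of all genes). CCN2 at day 14 lost its call without DMSO day 0 replicate 1 or 3 or without DMSO day 14 replicate 2, with adjusted p between 0.0582 and 0.0653 in edgeR's quasi-likelihood test.

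**Figure D4:**
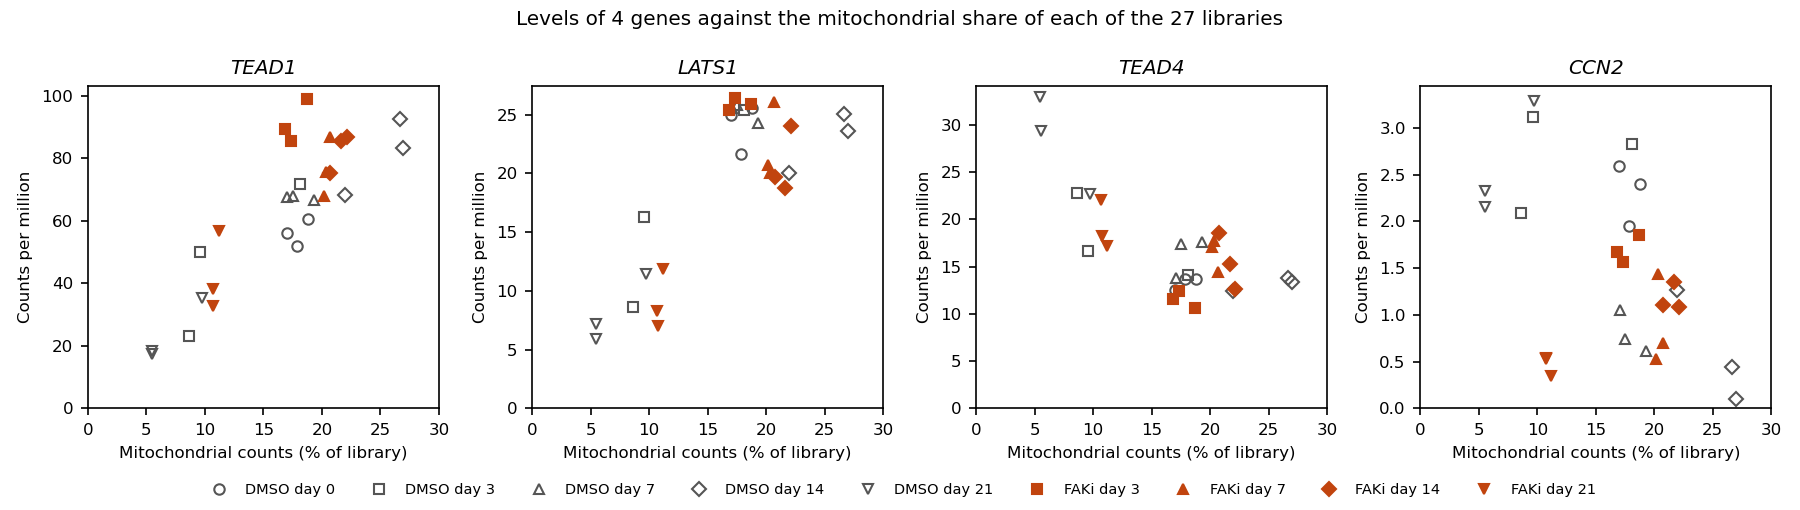
CPM of TEAD1, LATS1, TEAD4 and CCN2 (linear axes) against the mitochondrial share of counts in each of the 27 libraries, with open symbols for DMSO and filled symbols for FAKi and a symbol shape for each day. The 8 libraries with a share of at most 11.2% hold the low values of LATS1, from 5.90 to 16.3 CPM, against 18.7 to 26.4 CPM in the others, while CCN2 at such shares is at 2.09 to 3.29 CPM with DMSO and 0.345 to 0.541 CPM with FAKi.

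Other genes of the pathway were described by lists, written with earlier results of these data known. Of the 11 genes of the Hippo kinase core (LATS1 and LATS2 among them), 3 fell with FAKi at day 14 by the adjusted p alone (12.4% of all genes), namely MOB1B by 0.79, TAOK1 by 0.77 and STK3 by 0.45 on the log2 scale, named after their values were seen. STK3 is a kinase that activates LATS1 and LATS2, MOB1B a cofactor of LATS and TAOK1 a kinase that acts on STK3. At day 21, 1 of the 11 passed (11.6% of all genes), TAOK3 at 0.68. Their median log2 fold change was 0.48, -0.11, -0.14 and 0.28 at days 3, 7, 14 and 21, and none of the 11 was called by both thresholds on any day. Of 13 upstream regulators, 2 passed the adjusted p at day 21 (11.6% of all genes), again named after their values were seen. WWC3, a scaffold that promotes LATS activation, was higher by 0.93 on the log2 scale (SE 0.23, adjusted p = 0.0406), and AMOT, a relative of AMOTL2 that binds YAP, fell by 0.85 (SE 0.23, adjusted p = 0.0497, edgeR quasi-likelihood, Benjamini-Hochberg for both). Of the 10 coactivators and DNA partners, 8 or 9 were tested and VGLL2, a TEAD cofactor, was called in the mean over the 4 days at -1.27 (SE 0.43, adjusted p = 0.0422, edgeR's quasi-likelihood test), as were 1.89% of all genes. VGLL2 rests on at most 34 counts per library and kept that call in 18 of 37 alternative settings.

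The YAP target genes that passed the test with FAKi were higher in some cases and lower in others. Of the 22 genes listed, 20 were tested on each day, and ANKRD1 and AXL, at 0.0221 and 0.0613 CPM on average, were too low. At day 14, 4 of the 20 passed the adjusted p (12.4% of all genes), with FOXF2, CCN1 and ASAP1 higher and GADD45A lower. At day 21, 3 passed (11.6% of all genes), with NT5E and CCN2 lower and FOXF2 higher. With each library left out in turn, the count was 1 to 10 at day 21, with 10 without DMSO day 21 replicate 3 (48.5% of all genes). At day 3 it was 0 to 6, with 6 without DMSO day 3 replicate 1 (32.7% of all genes). At days 3 and 7 edgeR passed 0 of the 20, with 5 and 6 at an unadjusted p under 0.05 (23.8% and 8.77% of all genes). The median log2 fold change of the list was 0.09, -0.09, -0.03 and 0.14 at days 3, 7, 14 and 21.

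NT5E, which encodes a cell surface ectonucleotidase, had the largest log2 fold change of the 20 genes on any day and, like CCN2, was lower at day 21. The FAKi libraries held 0.616, 0.379 and 0.862 CPM and the DMSO libraries 7.26, 5.62 and 10.4 CPM. The groups were far apart, with a log2 fold change of -3.56 (SE 0.36, adjusted p = 0.00379, edgeR quasi-likelihood, Benjamini-Hochberg), and it was called in all 17 alternative settings. NT5E was also called in the mean over the 4 days at -1.39 (SE 0.16, adjusted p = 1.40e-06, same edgeR test). Without day 21 its mean effect was -0.66 and no longer called. Its effect differed between days (adjusted p = 2.93e-04, edgeR's quasi-likelihood test of the interaction). At days 3, 7 and 14 its log2 fold change was -0.29, -0.83 and -0.86.

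FOXF2, a forkhead transcription factor, was higher with FAKi at day 14 by 1.20 on the log2 scale (SE 0.13, adjusted p = 2.50e-06) and at day 21 by 0.74 (SE 0.12, adjusted p = 0.0120, edgeR quasi-likelihood, Benjamini-Hochberg). The day 21 value passed the adjusted p in 12 of 17 alternative settings. Of the 6 fits without a single library of that day, only 1 passed, at log2 fold changes of 0.72 to 0.77 over the 6. At day 14 the FAKi libraries held 70.1, 63.9 and 62.1 CPM and the DMSO libraries 34.5, 28.2 and 22.7 CPM. At day 7 FAKi replicate 1 held 67.1 CPM and replicate 3 held 20.7 CPM, so that a single library was high, as for CCN1.

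**Figure D5:**
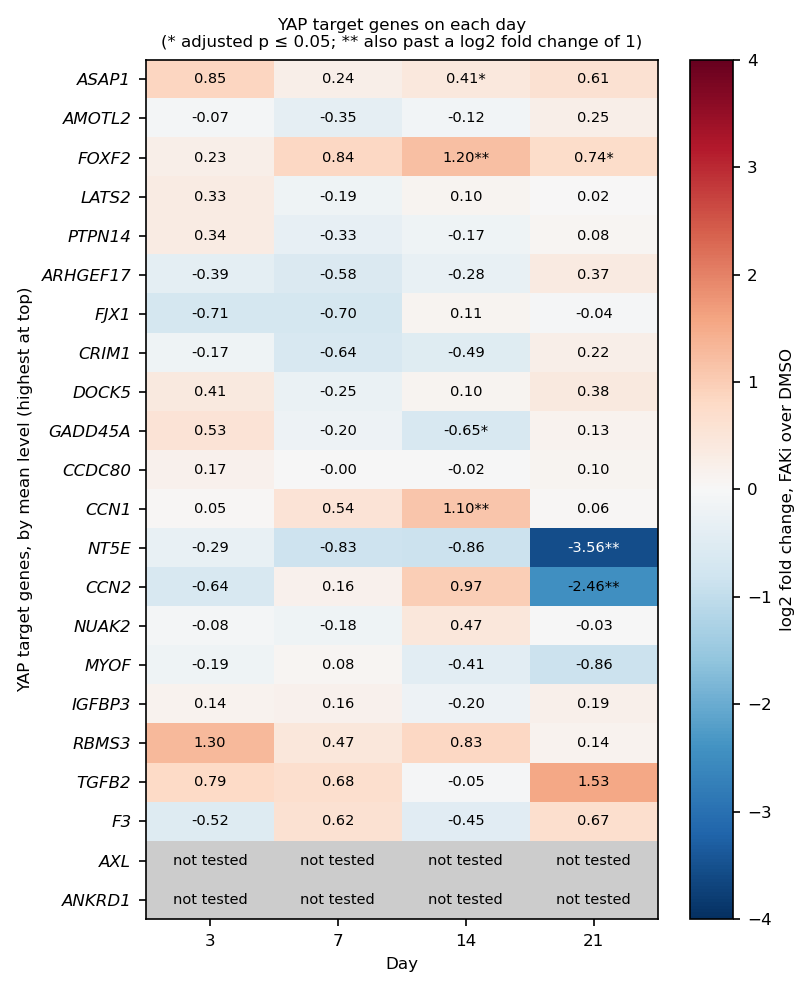
Log2 fold change of FAKi over DMSO at days 3, 7, 14 and 21 (columns) for the 22 YAP target genes (rows, in order of mean level), in red where higher and blue where lower with FAKi, with 1 star for an adjusted p of at most 0.05 and 2 stars where the log2 fold change also exceeded 1. NT5E at -3.56 and CCN2 at -2.46 stand out at day 21, FOXF2 at 1.20 and CCN1 at 1.10 at day 14, and grey cells were not tested.

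Over the 9 group means of log2 CPM, the genes most like CCN2 were ATP1B1 (Pearson r 0.973), MFSD2A (0.970) and ZNF561-AS1 (0.961). Those most like YAP1 were an unnamed gene, INTS6 and ZNF827, at 0.992 to 0.994, and those most like CCN1 were C1orf198, an unnamed gene and RAB40A, at 0.891 to 0.900. The 9 means share the scaling and library properties described above, and the values are a description.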

How the data were processed

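RNA sequencing was done on 27 libraries of 92.1 cells. Per the file headers and the submitters' processing notes, the authors used Trim Galore for trimming, STAR 2.5.3a for alignment to hg38, and counted reads on exons of GENCODE 39 with HOMER, 1 transcript per gene. The deposited values are raw counts per gene and library, not normalized, and the listed transcript length was used for levels per kilobase. Libraries were made with a stranded mRNA kit, and the counting command named no strand option.

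Groups came from the sample labels. Counts were tested with the quasi-likelihood method of edgeR 4.0.16 in R 4.3.3 (TMM scaling, genes with at least 20 counts over the libraries of a fit, Benjamini-Hochberg adjustment over all genes tested). FAKi was compared with DMSO in the 6 libraries of each day, the mean effect and the change between days in the 24 libraries of days 3 to 21, and DMSO days with day 0 in the 15 DMSO libraries. Calls needed an adjusted p no higher than 0.05 and a log2 fold change beyond 1 in either direction, and the interaction on the adjusted p alone. Correlations of same-numbered libraries over genes were 0.488, 0.166 and 0.688 at day 21, which met the limit of 0.1 for pairing set here, and did not all pass it on other days. The method was checked on simulated counts.

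The 10 genes and the gene lists were chosen with earlier results of these data known. Of the other list genes, those called by both thresholds in a day comparison or in the mean effect with FAKi were named by rule, and the 3 genes most like CCN1, CCN2 and YAP1. Others were named after their values were seen, beside small counts. A gene of the lists is not reported here. Alternatives were DESeq2 1.42.0, other scalings, filters and fits, the replicate block, each library left out in turn, correction for length and GC content and thinned counts. The newer edgeR method, the correction, the thinned counts, the single days left out and the joint removal of 2 libraries were chosen after the data were seen. Depth limits WWTR1 and CCN2 most.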

Additional observations from a re-analysis of the deposited data

Results flagged for a closer look

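The FAKi effect on CCN2 differed between the 4 days in the test of 3 interaction terms (adjusted p = 0.0136, edgeR quasi-likelihood, Benjamini-Hochberg). Its log2 fold change was -0.64, 0.16, 0.97 and -2.46 at days 3, 7, 14 and 21. That of NT5E also differed (adjusted p = 2.93e-04, same edgeR test), with log2 fold changes of -0.29, -0.83, -0.86 and -3.56.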

How the results depend on the processing

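The call of CCN1 at day 14 and that of CCN2 at day 21 held under all alternatives except single libraries left out. With each library left out in turn, 0 to 2 of the 10 genes were called at day 3, 0 to 1 at day 14, 0 to 3 at day 21, 0 to 5 in the change between days, 0 to 2 in DMSO at day 14 and 3 to 7 in DMSO at day 21. The change between days passed 4 with no count filter, 2 with filterByExpr, DESeq2 or all 27 libraries in a single fit, and 5 without 2 libraries, against 1. DMSO day 14 gave 1 with the newer quasi-likelihood method or a single fit, against 2. DMSO day 21 gave 7 by adjusted p alone and 2 with the length and GC correction, against 4, and the mean effect 1 by adjusted p alone, against 0. Where a value moved, the cause was not tested. Over all alternatives, the count of all genes called ran from 0 to 2765 at day 3 (0 as reported), 0 to 248 at day 7 (6), 275 to 2918 at day 14 (388), 52 to 4248 at day 21 (1226), 265 to 4371 in the mean (528) and 1574 to 7038 in the change between days (2881), and in DMSO from 0 to 821 at day 3 (0), 5 to 51 at day 7 (21), 1096 to 4029 at day 14 (1608) and 3314 to 10068 at day 21 (5052).

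Some log2 fold changes changed sign. For FAKi at day 3 they were TEAD2 at -0.011 with upper quartile scaling, -0.024 with no filter and -0.0051 in a single fit, and AMOTL2 at 0.015 with the length and GC correction. At day 14 they were TEAD1 at -0.0030 with upper quartile scaling, YAP1 at 0.00061 with no filter, 0.042 with the correction and 0.0019 in a single fit, and LATS1 at 0.030 with the correction. At day 21 LATS2 was at -0.13 with the correction, -0.00017 with thinned counts, -0.019 in a single fit and -0.11 with block and correction. The mean effect of TEAD2 was -0.0073 with RLE scaling, -0.0047 with upper quartile scaling, -0.0063 with no filter, -0.0074 with DESeq2, -0.0077 with thinned counts, -0.0075 in a single fit and -0.0073 without 2 libraries. Without day 3 the mean effects of LATS1 and LATS2 were -0.045 and -0.025, and without day 21 that of CCN2 was 0.16, against -0.49 with all days. In DMSO, TEAD4 at day 14 was at 0.0036 with filterByExpr, 0.16 with the correction and 0.033 with thinned counts, CCN1 at day 3 at -0.013 with the correction and -0.014 with thinned counts, CCN2 at day 3 at -0.052 and WWTR1 at day 7 at 0.14 with thinned counts.

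With the replicate block, the mean effect of TEAD2 was -0.00047, and 1 of the 10 genes was called at day 14 and 1 at day 21, as without the block, while 2076 of all genes were called at day 21 against 1226.

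With each library left out, ranges of log2 fold change that crossed 0 with FAKi at day 3 were -0.24 to 0.16 for AMOTL2, -0.087 to 0.084 for TEAD2 and -0.0048 to 0.12 for CCN1. At day 7 they were -0.083 to 0.11 for TEAD4, -0.033 to 0.21 for TEAD2, -0.25 to 0.85 for CCN1, -0.37 to 0.45 for CCN2, -0.084 to 0.014 for YAP1 and -0.020 to 1.86 for WWTR1. At day 14 they were -0.059 to 0.040 for YAP1 and -0.097 to 0.12 for TEAD1, and at day 21 -0.073 to 0.54 for LATS1, -0.17 to 0.40 for LATS2 and -0.13 to 0.22 for CCN1. For the mean effect they were -0.026 to 0.035 for TEAD2, -0.0047 to 0.16 for LATS2 and -0.13 to 0.036 for AMOTL2. In DMSO at day 3 they were -0.067 to 0.046 for CCN1, -0.66 to 0.070 for TEAD1, -0.47 to 0.079 for LATS2 and -0.35 to 0.050 for AMOTL2. In DMSO at day 7 they were -0.019 to 0.092 for LATS1, -0.090 to 0.0063 for TEAD2 and -0.97 to 0.26 for WWTR1, at day 14 -0.066 to 0.028 for TEAD4 and -0.16 to 0.015 for LATS1, and at day 21 -0.11 to 0.27 for CCN2.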
